A study of Saccharomyces cerevisiae with 12 samples.

Results

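Sterol, fatty acid and phospholipid synthesis genes of budding yeast were followed through chromatin immunoprecipitation sequencing of RNA polymerase II (Pol II). The genes were chosen by name and pathway, not by a threshold on the peaks, although earlier results of these data were known at that time. All 34 were found by symbol in the RefSeq gene table of assembly R64, among 6431 nuclear genes of which 6002 are protein-coding. They comprise 23 ergosterol, 5 fatty acid and 6 phospholipid genes. Both strains were MATa with his3Δ1, leu2Δ0, met15Δ0 and ura3Δ0, and in both the Pol II subunit Rpb3 was FLAG-tagged. The mutant differed from the wild type by dbp2::KanMx6, a deletion of the gene for the DEAD-box RNA helicase Dbp2, and is called dbp2Δ here. Cells were grown at 30 °C in YP medium with 2% glucose and fixed with 1% formaldehyde for 15 min. Each strain had 3 immunoprecipitated and 3 input libraries, which the authors pooled before they called peaks, so each strain is 1 peak list. Replicate error is therefore unknown, and the strains are described side by side without a test.

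Ergosterol is the main sterol of fungal membranes. It is made from acetyl-CoA through mevalonate, farnesyl pyrophosphate, squalene and lanosterol, and several later steps use molecular oxygen or are targets of antifungal drugs. Fatty acids are made by acetyl-CoA carboxylase and a fatty acid synthase of separate α and β chains, and are then desaturated by Ole1. Phospholipids are made from phosphatidate through CDP-diacylglycerol, and several of their genes are repressed by inositol.

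The wild-type list held 1642 peaks from 3648848 fragments after duplicates were removed, and the dbp2Δ list 1628 peaks from 4030024. Coverage of DBP2 was 100% in the wild type and 0% in dbp2Δ, and HIS3, LEU2, MET17 and URA3 were at 0% in both. The fold enrichment given below is the authors' value for a peak, the immunoprecipitate over local background at the summit, which is the peak's highest point. It serves to rank peaks within a list, and no direction is drawn between the 2 lists, which were scaled separately. A gene is said to have a peak when peaks covered at least 50% of its coding span, and its fold enrichment is that of the highest peak touching it. All coordinates are those of R64, counted from 1.

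A peak covered 15 of the 34 lipid genes in the wild type and 13 in dbp2Δ. These are 44.1% and 38.2% of the genes, beside 19.9% and 20.6% of all protein-coding genes. A peak touched 22 and 20 of the 34 over any length, beside 38.8% and 42.4% of all protein-coding genes. Of the combined coding length of the 34 genes, 56.7% lay under wild-type peaks and 45.7% under dbp2Δ peaks. For all coding spans the values were 17.8% and 19.9%. ACC1, FAS1 and FAS2, at 6702, 6156 and 5664 bp, were the longest of the 34 and weighed heavily in these sums. Wild-type peaks covered each of them fully, whereas dbp2Δ peaks left ACC1 at 25.4%. By pathway, the covered lengths were 38.2% and 39.4% (ergosterol), 95.6% and 71.7% (fatty acid), and 31.0% and 5.44% (phospholipid). The lipid genes were slightly longer than other genes, with a median of 1345.5 bp against 1200 bp. Their fold enrichments were moderate: the median over those with a peak was 2.92 in the wild type and 2.45 in dbp2Δ, beside 2.86 and 2.91 over all protein-coding genes with a peak.

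The same 11 genes had a peak in both lists, which held for 16.9% of all protein-coding genes. They were ERG1, ERG2, ERG3, ERG6, ERG10, ERG11, ERG13, ERG25, FAS1, FAS2 and OLE1. Another 4 genes, ERG5, ACC1, CHO2 and CDS1, met the rule in the wild type only, and 2 genes, ERG4 and IDI1, in dbp2Δ only. The background shares of these classes were 3% and 3.7%. A further 6 genes were touched by a peak over less than 50% of their length, and 11 were touched by no peak of either list, as were 52.7% of all protein-coding genes.

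**Figure D1:**
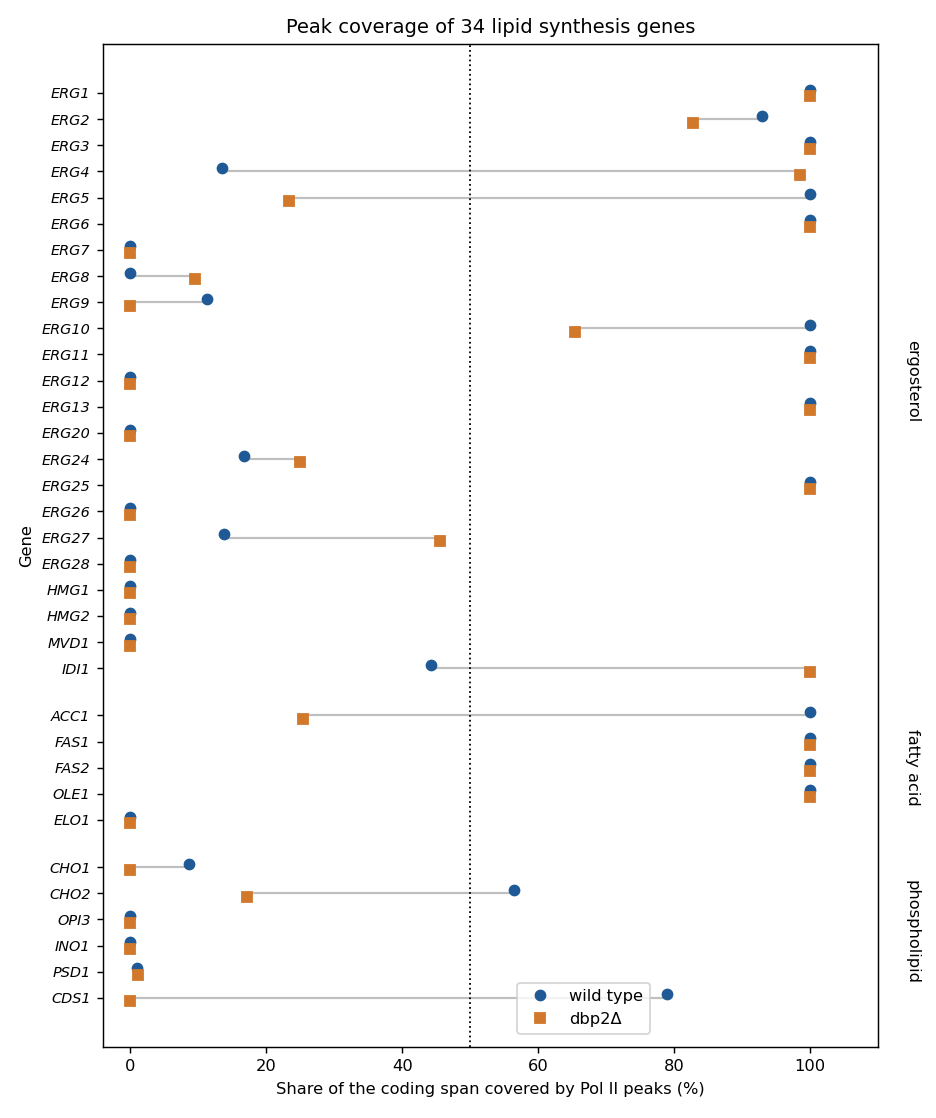
Share of the coding span covered by peaks (horizontal axis, percent) for each of the 34 genes (vertical axis, by pathway), with circles for the wild type and squares for dbp2Δ, each 1 pooled list. The dotted line marks 50%. Of the genes, 11 lie to its right in both strains, and ERG4, ERG5, IDI1, ACC1, CHO2 and CDS1 cross it.

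In the ergosterol pathway, wild-type peaks covered 9 of 23 genes and dbp2Δ peaks 10. Early in the pathway, from acetyl-CoA to farnesyl pyrophosphate, wild-type peaks covered 2 of 9 genes and dbp2Δ peaks 3. Beside background shares of 19.9% and 20.6%, counts from so few genes do not mark this branch out. ERG10 (YPL028W, chromosome XVI, 498096 to 499292) encodes acetoacetyl-CoA thiolase, the first enzyme of the pathway. A wild-type peak covered all of it with a fold enrichment of 1.84. In dbp2Δ, peaks of 1.47 and 1.49 covered its beginning and its end, 65.4% in sum, and left the middle bare. ERG13 (YML126C, chromosome XIII, 19060 to 20535), the gene of HMG-CoA synthase, was fully covered in both lists at 2.21 and 1.99, by peaks that also covered its neighbour PGA3.

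HMG1 and HMG2, the paralogous genes of HMG-CoA reductase, which catalyses the rate-limiting step of the pathway, were not touched by a peak in either list. The same was true of ERG12 (mevalonate kinase), MVD1 (mevalonate pyrophosphate decarboxylase) and ERG20 (farnesyl pyrophosphate synthase). ERG8, which encodes phosphomevalonate kinase, was untouched in the wild type and covered over 9.51% in dbp2Δ by a peak with its summit 85 bp past the gene.

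IDI1 (YPL117C, chromosome XVI, 327864 to 328730) encodes isopentenyl diphosphate isomerase. It was covered over 44.3% in the wild type, just outside the 50% rule, by separate peaks at its ends with fold enrichments of 1.81 and 1.70. In dbp2Δ a single peak of 2.20 covered all of it. Both lists therefore had signal over IDI1, and they differed in whether the middle of the gene was included.

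Between squalene and ergosterol, 7 of 14 genes had a peak in each list, beside 19.9% and 20.6% of all protein-coding genes. This count also comes from few genes and was not tested. ERG1 (YGR175C, chromosome VII, 846933 to 848423) encodes squalene epoxidase, the target of terbinafine. It was covered completely in both lists, with fold enrichments of 2.14 (wild type) and 2.66 (dbp2Δ). ERG11 (YHR007C, chromosome VIII, 120091 to 121683) encodes the lanosterol demethylase that azole drugs inhibit. Its peaks of 3.17 and 3.67 were the highest of any ergosterol gene in their lists. They ranked 358 of 1642 and 297 of 1628, and they covered at least 50% of no other gene. The dbp2Δ summit lay 317 bp past ERG11, so that value need not describe the gene. Among ergosterol genes with an inner dbp2Δ summit, ERG1 was highest at 2.66.

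ERG3 (YLR056W, chromosome XII, 253861 to 254958), the gene of a sterol desaturase, was close behind in the wild type at 3.16 and stood at 2.45 in dbp2Δ. ERG6 (YML008C, chromosome XIII, 251839 to 252990), which encodes the sterol methyltransferase, was fully covered at 2.43 and 2.01, by peaks that ran on over MRPL39. ERG2 (YMR202W, chromosome XIII, 667537 to 668205), the sterol isomerase gene, was covered over 93.0% and 82.8% at 1.91 and 2.24. The dbp2Δ summit near ERG2 lay 1565 bp past the gene, beyond TOM40, so that value need not describe ERG2.

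ERG25 (YGR060W, chromosome VII, 610564 to 611493) encodes the sterol methyl oxidase and was fully covered in both lists, at 2.92 and 2.47. Both summits lay within the adjacent purine synthesis gene ADE6, 482 and 460 bp past the end of ERG25. The wild-type peak was 7604 bp long and also covered ADE6, COX18 and SPT4, whereas the dbp2Δ peak was 1915 bp long and covered at least 50% of no gene but ERG25. Both peaks began at the same base, 610379.

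ERG4 and ERG5 encode the reductase and the desaturase that finish the sterol side chain, and each met the rule in a different list. ERG5 (YMR015C, chromosome XIII, 300869 to 302485) was fully covered in the wild type by a peak of 1.99 with its summit 18 bp upstream of the coding start. In dbp2Δ a peak of 1.96 covered 23.4% of ERG5, at its 5′ end, and its summit lay 109 bp into the gene. ERG4 (YGL012W, chromosome VII, 472855 to 474276) was covered over 13.4% in the wild type and 98.5% in dbp2Δ, at 2.11 and 2.92. Both of these peaks also covered SCL1, a proteasome gene, and had their summits past the end of ERG4, at 162 and 31 bp. Signal of SCL1 and of ERG4 cannot be told apart in them.

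The other genes of this branch had little or no coverage. ERG7 (lanosterol synthase), ERG26 (a sterol dehydrogenase) and ERG28 (a scaffold of the demethylation enzymes) were untouched in both lists. ERG9, the squalene synthase gene, was covered over 11.2% in the wild type and 0% in dbp2Δ. ERG24, the gene of the reductase that follows Erg11, was covered over 16.7% and 24.9% by peaks that also covered the cochaperone gene HCH1. ERG27, a sterol ketoreductase gene, was covered over 13.7% and 45.5%, and none of the peaks touching it had its summit inside it.

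In 8 of the 11 genes with a peak in both lists, the wild-type summit lay in the first 10% of the gene. They were ERG1, ERG3, ERG6, ERG10, ERG11, ERG13, FAS2 and OLE1. In dbp2Δ the summit lay in the first 10% for 1 of the 11, OLE1. In ERG11 it lay 24 bp from the coding start in the wild type and 317 bp past the end of the gene in dbp2Δ. The ERG3 summit was 83 bp from the coding start in the wild type and 971 bp from it in dbp2Δ, at 88.5% of the gene's length. These peaks kept similar edges: over ERG3 they reached from 193 bp upstream to 522 bp downstream in the wild type and from 141 to 473 bp in dbp2Δ.

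The summit over ERG1 lay at 6.24% of the gene in the wild type and 92.5% in dbp2Δ. In ERG10 the positions of the highest peaks were 9.87% and 93.7%, although the other dbp2Δ peak of ERG10, of almost the same height, had its summit at 12.1%. The dbp2Δ summits of ERG13 and ERG6 lay 287 and 606 bp past their genes, against 113 and 35 bp from the coding start in the wild type. The ERG13 summit of dbp2Δ fell within RSC9, the next gene. In FAS2 the summit stood 41 bp from the start in the wild type and 2037 bp from it in dbp2Δ, still in the first part of this long gene. Only OLE1 among the 8 had its summit in the first 10% in both lists, 90 and 51 bp from the coding start.

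**Figure D2:**
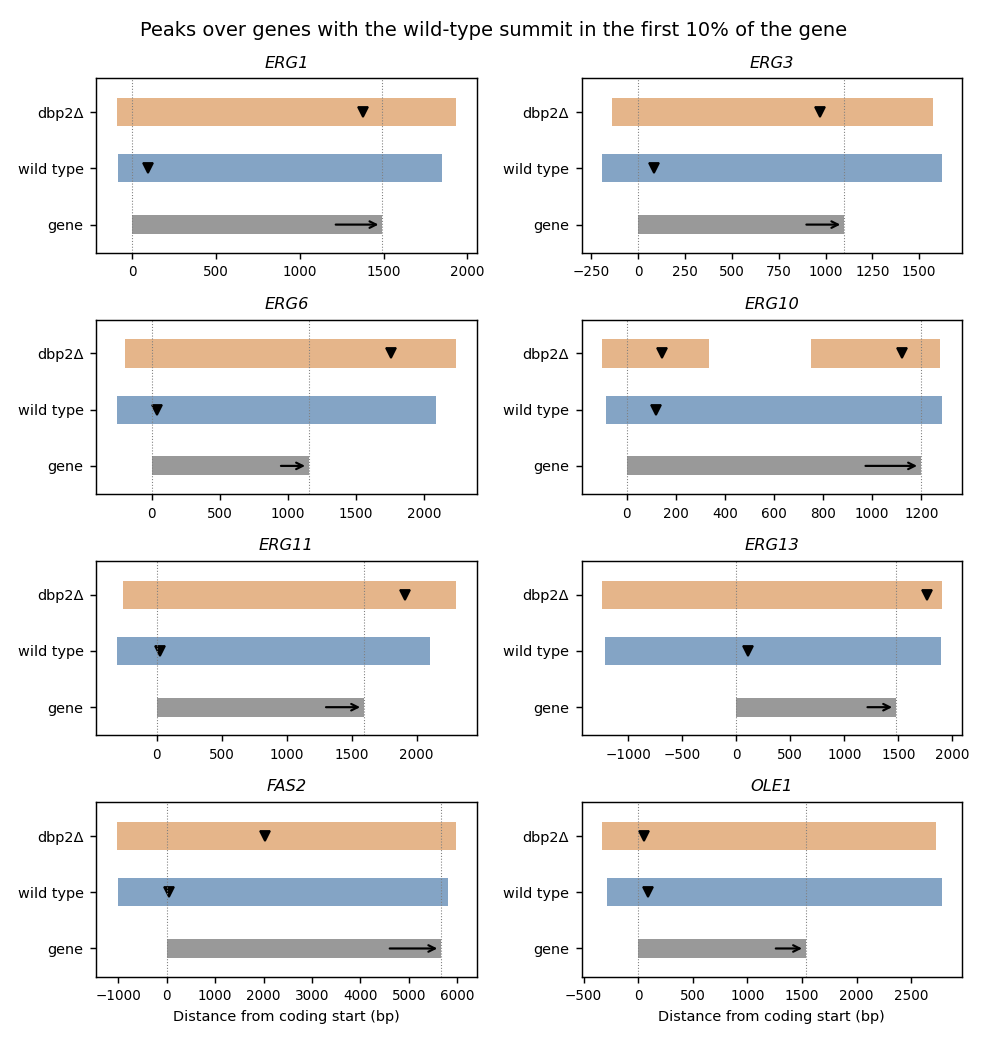
Peak extents (bars) and summits (triangles) in the wild type and dbp2Δ for the 8 genes whose wild-type summit lay in the first 10% of the gene, along the distance from the coding start in bp, with the gene in grey and an arrow for the direction of transcription. The bars of most genes match in extent, while the dbp2Δ triangle lies further toward or past the 3′ end in all but OLE1.

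This shift was not limited to the lipid genes. Over the 1017 protein-coding genes with a peak in both lists, 23.2% had the wild-type summit in the first 10% and 6.88% the dbp2Δ summit. Of the 236 genes with an early wild-type summit, 56.8% had the dbp2Δ summit at or beyond 75% of the gene length, as did 6 of the 8 lipid genes. Over all 1017 genes the median dbp2Δ summit was itself at 98.4% of the gene length. A late dbp2Δ summit was thus common whatever the wild-type position, and 56.8% does not mark out the genes with an early one. The dbp2Δ summit lay further in the 3′ direction than the wild-type summit for 9 of the 11 lipid genes and for 66.8% of the 1017. The 9 include FAS1 and ERG13, whose dbp2Δ summits fell within other genes, and ERG2, whose dbp2Δ summit lay beyond TOM40. They also include ERG10, whose other dbp2Δ peak of almost the same height had its summit near the 5′ end. Only 5 of the 11 dbp2Δ summits lay inside the gene, so the count does not describe positions within the lipid genes alone. Among the 420 genes whose highest peak left every other gene under 50% covered in both lists, 34.5% and 9.29% had an early summit. ERG3, ERG10 and ERG11 were in this set, which was chosen after the values were seen. A summit is 1 base per peak and carries no error here. The recorded fragment size was 260 bp for the wild-type list and 290 bp for that of dbp2Δ, and its part in the summit positions was not tested.

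**Figure D3:**
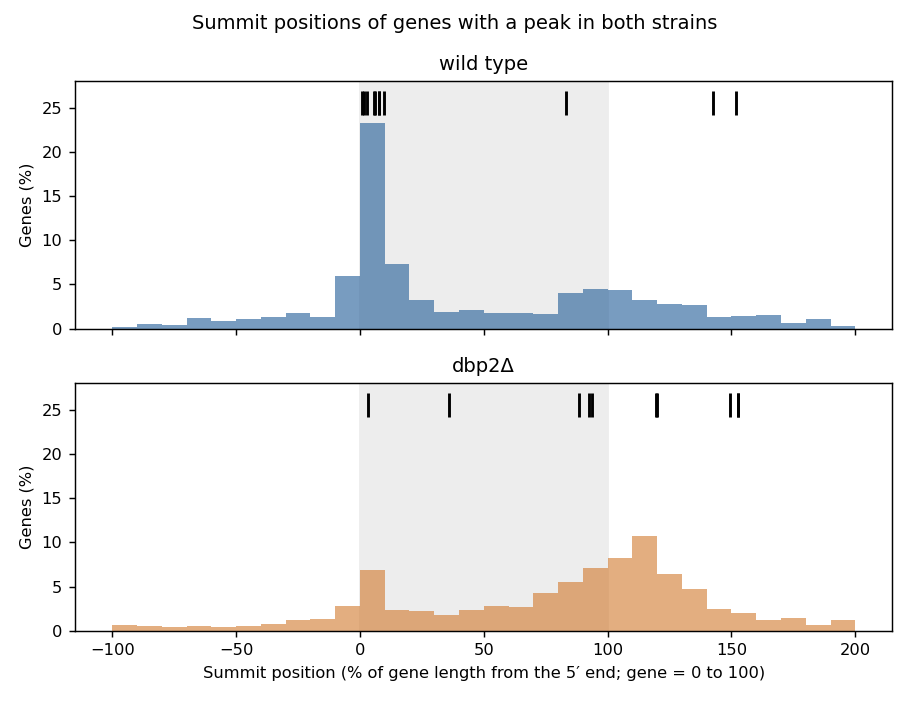
Position of the summit along the gene (horizontal axis, 0 at the 5′ end and 100 at the 3′ end, in percent, gene shaded) as a percent of the 1017 protein-coding genes with a peak in both lists (vertical axis), for the wild type above and dbp2Δ below, with black ticks for the lipid genes. Summits beyond the axis, 144 and 140 of them and 0 and 1 of the lipid genes, are not drawn. Most wild-type ticks stand in the first bar of the gene and most dbp2Δ ticks near or past its end.

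The fatty acid genes were the most fully covered of the 3 pathways, with 4 of 5 genes in the wild type and 3 in dbp2Δ, beside 19.9% and 20.6% of all protein-coding genes. These counts come from only 5 genes and were not tested. When a peak counted only with its summit inside the gene, 2 genes remained in each list. The coding spans of the fatty acid genes are long, with a median of 5664 bp, and 95.6% and 71.7% of their combined length lay under peaks. FAS1 (YKL182W, chromosome XI, 100671 to 106826), the gene of the β chain of fatty acid synthase, was fully covered at 9.004 in the wild type and 8.62 in dbp2Δ. Both summits lay within RPL17A, a ribosomal protein gene, 2619 and 3240 bp past FAS1. The peaks ran over FAS1, PRS1 and RPL17A without a break, for 10439 and 10597 bp, so the values need not describe FAS1.

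FAS2 (YPL231W, chromosome XVI, 108652 to 114315), the gene of the α chain, had peaks of 2.93 and 2.38 with the summit inside the gene in both lists. They ran for 6822 and 7025 bp and also covered SSO1, which lies upstream. OLE1 (YGL055W, chromosome VII, 398628 to 400160), which encodes the fatty acid desaturase, had peaks of 2.93 and 2.48, likewise with inner summits. Within each list, FAS2 and OLE1 thus stood at nearly the same fold enrichment. ELO1, the gene of a fatty acid elongase, was untouched in both.

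ACC1 (YNR016C, chromosome XIV, 654673 to 661374), the gene of acetyl-CoA carboxylase, had the largest difference in covered length among the 34 genes. In the wild type a peak of 10860 bp covered all of it together with TIM23 and RCF2, at a fold enrichment of 3.41. Its summit lay 1115 bp upstream of ACC1. In dbp2Δ 3 separate peaks touched ACC1 and covered 25.4% of it. A peak of 1.78 stood at the 5′ end, 1 of 1.27 near the middle, and 1 of 2.23 at the 3′ end with its summit in SMM1.

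Of the 6 phospholipid genes, 2 had a wild-type peak and 0 a dbp2Δ peak, beside 19.9% and 20.6% of all protein-coding genes. Of their combined length, 31.0% and 5.44% was covered, beside 17.8% and 19.9% of all coding spans. With only 6 genes, these counts do not set the pathway apart from those shares. CDS1 (YBR029C, chromosome II, 296369 to 297742) encodes CDP-diacylglycerol synthase, which makes the common precursor of these lipids. Wild-type peaks of 1.62 and 1.63 covered 79.0% of it, with summits 41 bp from the coding start and 79 bases before its last. In dbp2Δ no peak touched CDS1. Both wild-type peaks were weak in their list, at ranks 1246 and 1232 of 1642.

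CHO2 (YGR157W, chromosome VII, 802440 to 805049), the gene of the first methyltransferase of phosphatidylcholine synthesis, was covered over 56.4% in the wild type, just inside the rule. This was the sum of a peak of 3.93 that also covered CYS4 and PTI1, with its summit 2273 bp upstream of CHO2, and a peak of 2.12 at the 3′ end. In dbp2Δ 17.2% was covered, by a peak of 6.07 with its summit in NSR1. OPI3, the gene of the next methyltransferase, and INO1, the inositol phosphate synthase gene, were untouched in both lists. CHO1, which encodes phosphatidylserine synthase, was covered over 8.66% in the wild type by a peak over GCD11 and over 0% in dbp2Δ. PSD1, the phosphatidylserine decarboxylase gene, was covered over 0.931% and 1.06%.

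**Figure D4:**
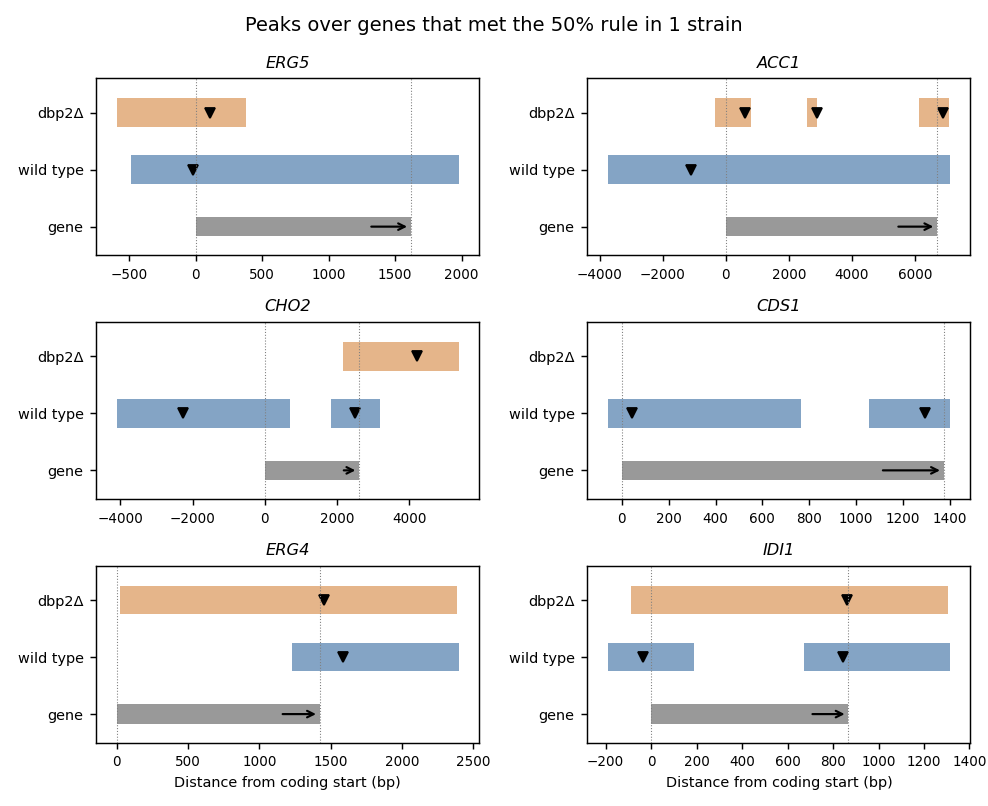
Peak extents (bars) and summits (triangles) for the 6 genes that met the 50% rule in 1 strain, drawn along the distance from the coding start in bp, with the gene in grey. CDS1 has no bar in dbp2Δ. The other 5 are touched by peaks in both strains and differ in how much of the gene the bars span.

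Peaks over 4 of the 15 lipid genes called in the wild type did not meet the rule in dbp2Δ, beside 15% for the protein-coding genes as a whole. In the other direction it was 2 of the 13, beside 17.9%. Of the 15 genes, 10 had the summit of their highest wild-type peak inside the gene, and so did 6 of the 13 in dbp2Δ. For the 11 with a peak in both, the counts were 9 and 5, and the shares of all 1017 such genes were 51.5% and 38.1%.

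**Figure D5:**
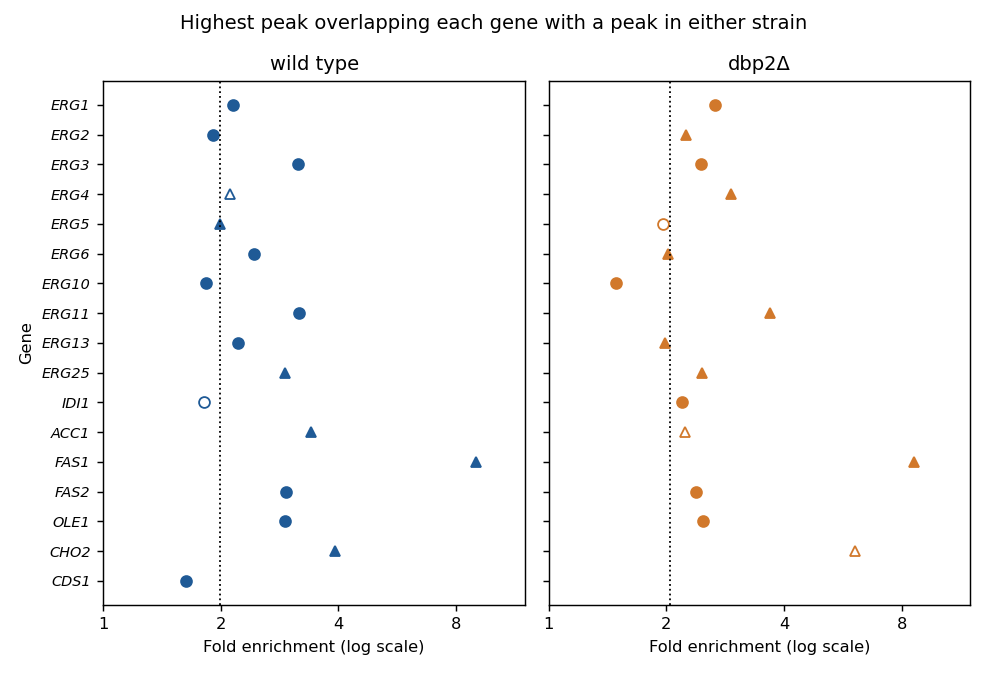
Fold enrichment of the highest peak touching each gene (horizontal axis, log scale) for the 17 genes with a peak in either strain, with circles where the summit lay inside the gene and triangles where it lay outside. Open symbols mark genes covered over less than 50% in that strain, and the dotted line marks the median of all peaks of the list, 1.99 in the wild type and 2.04 in dbp2Δ. FAS1 is highest in both panels, with its summit outside the gene. In dbp2Δ the open symbol of CHO2 follows at 6.07, from a peak with its summit in NSR1.

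Other genes of lipid metabolism were grouped in 7 lists of 55 genes in all. Of them 13 had a peak in each strain's list, which is 23.6% beside the background of 19.9% and 20.6%. In both lists 9 of the 55 had a peak, beside 16.9% of all protein-coding genes. Of 10 genes of fatty acid elongation and acyl-CoA, 5 and 4 were covered. FAA4, an acyl-CoA synthetase gene, led at 8.43 and 7.53, in peaks that also covered the snoRNA gene SNR86. TSC13 (5.79, with 22.4% covered in dbp2Δ) had a peak only in the wild type, shared with NOP1, and was next there, while ELO3 (3.48) was next in dbp2Δ.

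Sphingolipid genes had 2 of 9 in each list, with IPT1 in both (2.38 and 1.97). LCB1, a subunit gene of serine palmitoyltransferase, had one only in the wild type (1.85, with 17.0% covered in dbp2Δ), and CSG2 only in dbp2Δ (2.03, over 50.9% against 35.4% in the wild type). Kennedy pathway and phosphatidate genes had 1 of 15 and 2 of 15, namely SLC1 in both (2.70 and 1.56) and ECT1 in dbp2Δ only (1.79). Neutral lipid genes had 0 of 4 in both lists.

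Among the electron donor genes CYB5 had a peak in both lists, shared with DBP2 in the wild type (5.69 and 3.20), and CBR1 in dbp2Δ only (1.64). Of 9 regulator genes, 2 and 3 were covered. HAP1 (9.23 and 9.62, with both summits past the gene) and SCS2 (1.88 and 1.78) had one in both. In the wild type 53.2% of HAP1 was covered, just inside the rule, against 100% in dbp2Δ. MGA2, whose product activates OLE1, had a peak in dbp2Δ only (1.80). Of UPC2, the gene of an activator of the ergosterol genes, 14.1% and 13.5% were covered. Of 5 transport and uptake genes, 2 and 0 were covered. The 2 were the inositol transporter gene ITR1 (2.55, from a peak that also covered PUF6, with 37.1% of ITR1 covered in dbp2Δ) and the choline transporter gene HNM1 (10.1, with 11.6% covered in dbp2Δ), whose peak also covered RPL7A and DBP3.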

How the data were processed

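Per the submitters' processing notes, the tools were Trimmomatic 0.36, Bowtie2 2.3.3.1 and MACS2 2.1.2, with build R64. Settings for the first 2 are not given in the sources used here. The authors' peak calling was paired-end, once for each strain, on 3 pooled immunoprecipitates against 3 pooled inputs at a q-value cutoff of 0.05, per the file headers. They kept 1 duplicate per position and took local background over 1000 and 10000 bp. The deposited fold enrichment is a ratio at the summit, and the deposited pileup a coverage signal that was not compared between lists. The deposited −log10 q-values served only as a stricter filter.

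Genes came from a RefSeq table of R64. Protein-coding lengths were multiples of 3 for 96.4%, so they were taken as coding spans with introns and without UTRs. Strand was read from the systematic name. Coverage was summed over peaks with Python 3.11.15, pandas 2.3.3 and numpy 2.4.6, and tested on simulated intervals. Alternatives were any overlap, 80% coverage, 2-fold enrichment, a −log10 q-value of 5, a common shortest peak of 290 bp, and a summit inside the gene. Of 35 listed genes, 34 are named and 1 is not reported here. Of the other lipid lists, the 2 highest genes per list and each gene with a peak in 1 list only are named, and UPC2 was added after its values were seen. Members and lists were chosen with earlier results of these data known.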

Additional observations from a re-analysis of the deposited data

How the results depend on the processing

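No paired analysis was possible because the authors pooled the 3 replicates of each strain before they called peaks, for which reason no replicate could be left out either. The planned search of promoters for motifs was not run, since no promoter sequences were used here. The share of all protein-coding genes with a peak is given here only for the 50% rule and for any overlap. Counts under the other rules therefore have no background beside them, and whether the lipid genes stay above it there was not examined. A common shortest peak of 290 bp changed none of the counts of lipid genes. With any overlap, 20 genes were touched in dbp2Δ, 19 in both lists and 1 in dbp2Δ only, ergosterol genes in the wild type numbered 14, phospholipid genes 4 and 2, and related genes 28 and 28. With 80% coverage, phospholipid genes in the wild type numbered 0 and related genes in dbp2Δ 8, and ERG5, ERG10 and ACC1 were covered in the wild type only. With a −log10 q-value of at least 5, ERG10 lost its dbp2Δ call, which left 10 genes in both lists and 5 in the wild type only. With peaks of at least 2-fold enrichment, related genes in dbp2Δ numbered 6 and phospholipid genes in the wild type 1. The 4 genes in the wild type only became 3 under this filter, ERG13, ACC1 and CHO2, and the 2 in dbp2Δ only became 3, ERG2, ERG4 and IDI1. When a peak counted only with its summit inside the gene, 5 genes had one in both lists (ERG1, ERG3, ERG10, FAS2 and OLE1), 6 in dbp2Δ and 1 in dbp2Δ only (IDI1). ERG2, ERG6, ERG11, ERG13 and CDS1 then had one in the wild type only. The pathway counts were then 4 for ergosterol genes in dbp2Δ, 2 for fatty acid genes and 1 for phospholipid genes in the wild type, and related genes numbered 5 and 3. The median fold enrichment was 2.21 in the wild type and 2.41 in dbp2Δ from peaks with inner summits, and 2.43 in the wild type from the peak that covered most of each gene. The median position of inner summits was 6.90% over 10 wild-type genes and 90.5% over 6 dbp2Δ genes, which are not the same genes. With peaks of at least 2-fold enrichment it was 5.87% over 7 and 88.5% over 5. With no fold filter, but only genes whose highest peak left all others under 50% covered in that list, it was 9.87% over 5 wild-type genes and 93.7% over 3 dbp2Δ genes, a choice added after the values were seen. Both of these medians are the position in ERG10, whose other dbp2Δ peak had its summit at 12.1%. The causes of these differences were not tested. The lowest fold enrichments of covered genes were 1.63 in the wild type (CDS1) and 1.49 in dbp2Δ (ERG10), and whether other depths would change such calls was not tested.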

Other observations

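Among the 34 genes, 6 encode enzymes that use molecular oxygen as a substrate: ERG1, ERG3, ERG5, ERG11, ERG25 and OLE1. Wild-type peaks covered all 6 and dbp2Δ peaks 5, ERG5 being the one without. Of the other 28 genes, wild-type peaks covered 9 and dbp2Δ peaks 8. The shares of all protein-coding genes were 19.9% and 20.6%. The grouping was made after the values were seen and was not tested, and the summit of ERG25 lay in ADE6 in both lists.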
